A study of Carassius gibelio with 26 samples.

Results

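Expression can differ between males of a group, as well as between groups, and the results here concern the spread between males rather than mean levels. Testis RNA of 21 gibel carp (Carassius gibelio) males aged 2 years was compared, out of 26 males in the series, with 1 sequencing library per male. The males were taken by their labels alone: 11 triploid (3n) males of group 2 (n = 5) and group 3 (n = 6), and 10 diploid (2n) males. Group 2 carried the label 28 to 31 °C (31 in all 5 library names) and group 3 the label 22 °C. Both groups were temperature-induced males, produced by gynogenesis, whose mother gave many sex-reversed offspring at 22 °C already. Eggs in gynogenesis were activated with sperm of gibel carp, common carp or bream, and the labels do not say which was used for which male. The 2n males came from sexual crosses and were kept at 22 °C. All parents traced to 1 river, and all fish were reared in aquaria. Ploidy, mode of reproduction and parentage differ together between the 3n and 2n males and cannot be told apart, and for group 2 rearing temperature differs as well.

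In sexual reproduction each egg and each sperm carries a different mixture of parental alleles, so full siblings differ genetically. In gynogenesis a sperm only activates the egg, and the offspring inherit the chromosomes of the mother. Where her eggs also pass on her chromosomes unreduced and without recombination, sons can be close to genetic copies of each other. Changes that arise anew and any chromosome material left by the sperm are exceptions. How alike the males here are genetically was not tested. The testis holds germ cells at many stages beside Sertoli, Leydig, blood and other cells. In bulk tissue, fewer cells of a type and less RNA per cell cannot be told apart. The gene IDs are not paired with names here, so neither the label testis nor the cell makeup of a male could be checked against marker genes.

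The library names carry a second number without a stated meaning: 11 in all of group 2, 11 or 12 in group 3 (4 and 2 males), and 14, 108 or 106 in 2n (5, 4 and 1 males). A set below is group 2, group 3, the 2n males of number 14 or those of number 108; the lone 2n male of number 106 (replicate 3) has no set. Libraries held 15492277 to 27142412 counts in groups 2 and 3 and 15375923 to 29503544 in 2n. The TMM scaling factors, which correct for RNA composition, were 0.773 to 0.973 in groups 2 and 3 and 0.965 to 1.24 in 2n, and other scalings were tried as alternatives. Reads were counted on goldfish genes. Of 62131 genes, 20516 had a mean of at least 5 CPM (counts scaled to a common library total) in both the 3n and the 2n males. Of these, 15176 had mean log2 CPM within 0.5 of each other in 3n and 2n, and the results rest on these genes, matched on level (median 3n minus 2n difference 0.02 log2).

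Males of groups 2 and 3 lay closer to their own set than diploid males did. The spread of a male is the median, over the 15176 genes, of the absolute difference between its log2 CPM and the mean of its set, with a correction for set size. It was 0.0972, 0.12, 0.12, 0.116 and 0.0948 in group 2 replicates 1 to 5. In group 3 replicates 1 to 6 it was 0.126, 0.077, 0.106, 0.0751, 0.139 and 0.091. The 2n males of number 14 (replicates 1, 2, 5, 6 and 7) stood at 0.191, 0.271, 0.151, 0.167 and 0.212, all above every male of groups 2 and 3. Those of number 108 (replicates 4, 8, 9 and 10) stood at 0.122, 0.125, 0.151 and 0.127, and overlapped the 3n males.

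The mean spread per male was 0.106 ± 0.0204 (SD, n = 11) in groups 2 and 3, against 0.169 ± 0.0491 (SD, n = 9) in 2n males within their numbers. On the linear scale these are typical departures of 1.08-fold and 1.12-fold from the set mean. The difference was -0.0631 (exact two-sided permutation p = 0.000137, adjusted over 7 such tests 0.000479), and the 3n male was the more spread of the pair in 5 of 99 pairings of a 3n with a 2n male. Males of a set share its mean, so their values depend on each other, and each side holds few sets. The permutation takes males as independent, so its p-value may be too small. The size of the difference was not the same for both 2n numbers. With 2n limited to number 108, an alternative added with the results known, the difference was -0.0258 and did not pass (exact permutation adjusted p = 0.0564), and limited to number 14 it was -0.0929 (exact permutation adjusted p = 0.000801). Without 2n replicate 2, the most spread male, the difference was -0.0425.

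**Figure D1:**
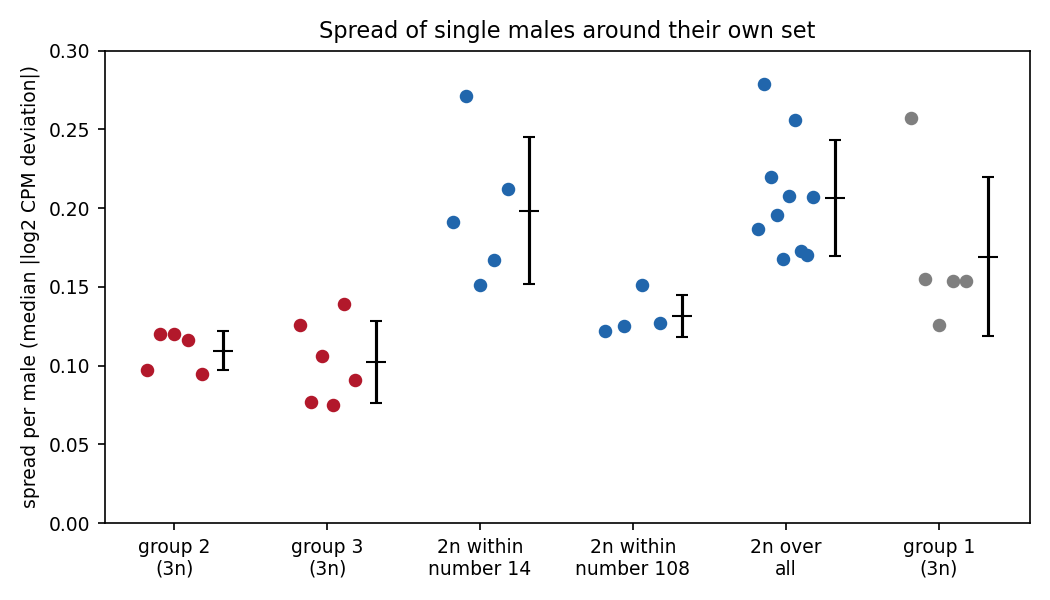
Spread of each male around its own set, in log2 CPM (median absolute deviation from the set mean over 15176 genes). Points are males and bars are mean ± SD; groups 2 and 3 lie between 0.0751 and 0.139, number 108 of the 2n males between 0.122 and 0.151, and number 14 between 0.151 and 0.271.

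Sets of equal size gave the same order of means. Group 2 averaged 0.109 ± 0.0125 (SD, n = 5) and 2n number 14 averaged 0.198 ± 0.0467 (n = 5), with no overlap (exact permutation p = 0.00794, the smallest that 5 against 5 allows; adjusted p = 0.0139). The 4 males of group 3 with number 11, taken as a set, averaged 0.0987 ± 0.019 (SD), against 0.131 ± 0.0132 in the 4 of 2n number 108. That difference of -0.0326 missed the threshold (adjusted p = 0.0667 by exact permutation, where the smallest unadjusted p allowed is 0.0286). It passed without group 3 replicate 4, 5 or 6 (each adjusted p = 0.037, exact permutation), and was -0.0197 without 2n replicate 9 (adjusted p = 0.2, exact permutation). The 2 diploid sets differed from each other as well, number 14 above number 108 by 0.0671 (exact permutation p = 0.0317, adjusted p = 0.0444). This last call was lost without 2n replicate 2 (difference 0.0378, exact permutation adjusted p = 0.08). It was also lost, with differences of 0.0626 to 0.0665, without 2n replicate 3, 4, 7, 8 or 10 or group 1 replicate 1.

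Males were also compared in pairs, which needs no set mean. The median absolute log2 difference between 2 males was 0.112 to 0.186 for the 10 pairs of group 2. For the 15 pairs of group 3 it was 0.106 to 0.171 where the males shared a number and 0.0982 to 0.217 where they did not. The 30 pairs of a group 2 with a group 3 male, reared at different temperatures, spanned 0.12 to 0.24. These ranges overlapped, whichever temperature or library-name number the 3n males had. Diploid pairs gave 0.201 to 0.371 (10 pairs) within number 14, 0.156 to 0.213 (6 pairs) within number 108, and 0.236 to 0.395 (29 pairs) between numbers. All pairs of number 108 thus lay inside the range of the 3n pairs, 0.0982 to 0.24. The other diploid ranges overlapped its upper end. Few genes were far apart between 2 males of group 2: a median of 0.438% of genes differed by 2-fold or more in a pair, against 4.18% within 2n number 14. Within a number of group 3 it was 0.105%, against 2.07% within 2n number 108.

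**Figure D2:**
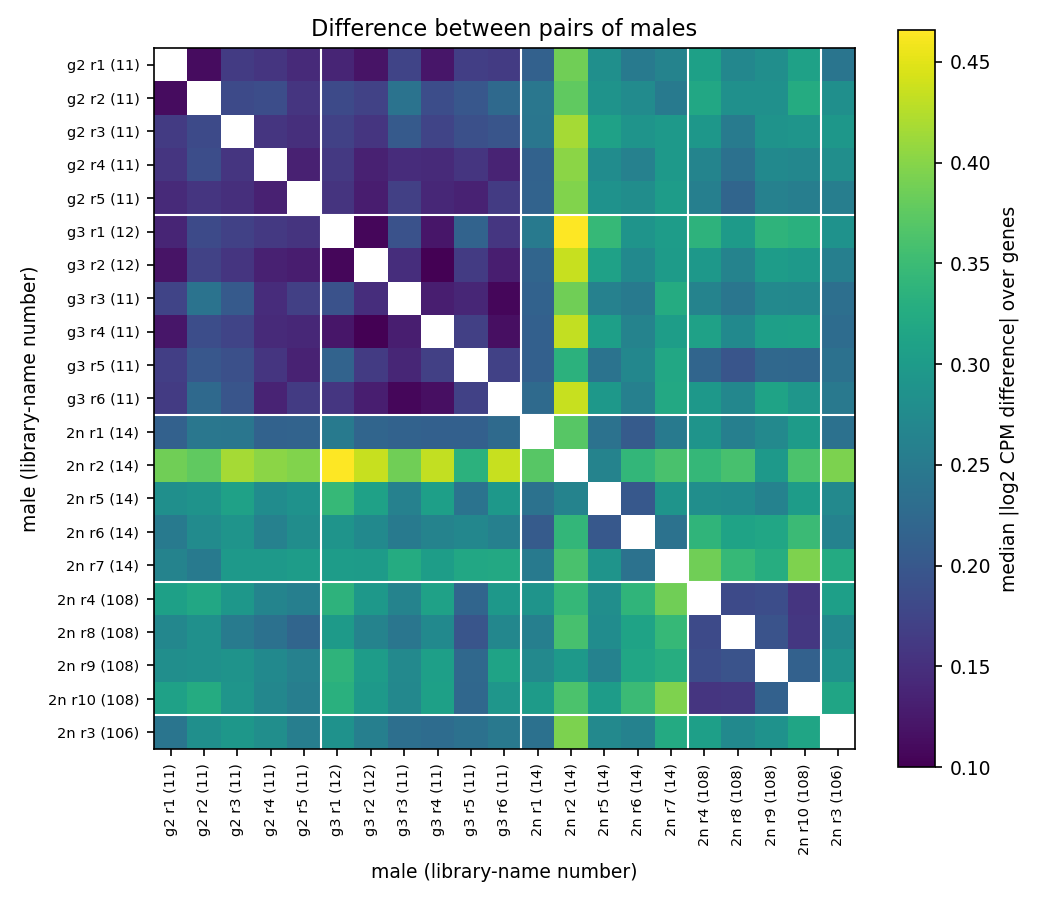
Median absolute log2 CPM difference over 15176 genes for each pair of the 21 males. Rows and columns give the group (g2, group 2; g3, group 3; 2n), the replicate (r) and, in brackets, the library-name number; white lines part the sets. The dark block of groups 2 and 3 holds values from 0.0982 to 0.24 and runs across both groups, whereas 2n males form a dark block only within number 108, and the lightest cell, 0.466, is that of group 3 replicate 1 and 2n replicate 2.

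Gene by gene, the standard deviation (SD) of log2 CPM between males had a median of 0.148 in groups 2 and 3, pooled within group, against 0.24 in 2n males, pooled within number. The median ratio of the SDs was 0.617, or -0.70 on the log2 scale, and the SD was lower in groups 2 and 3 for 12989 genes (85.6%). The ratio ran from -1.58 at the 10th to 0.14 at the 90th percentile of genes. With 2n limited to number 108 the median log2 ratio was -0.17, and leaving out 2n replicate 2 gave -0.48. Genes that varied more between 3n males also tended to vary more between 2n males (Spearman's rho 0.439 across 15176 genes, which share libraries and are not independent).

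Counting noise was similar on both sides, and the typical SD still differed between them with it taken away. From the counts alone, a median SD of 0.071 would arise in groups 2 and 3 and 0.0667 in 2n. It made up a median of 23.1% of the variance in groups 2 and 3 and 7.33% in 2n. With it taken away the typical SD was 0.126 in groups 2 and 3 and 0.229 in 2n. The biological coefficient of variation (BCV) of edgeR, the square root of its dispersion, which leaves out counting noise, was 10.7% in groups 2 and 3 and 20.8% in 2n within numbers. By set it was 11.2% in group 2 and 10.3% in group 3, against 23.5% in 2n number 14 and 16.8% in 2n number 108. The ratio of dispersions, 0.264, was 0.405 with 2n limited to number 108. These values carry no test.

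With 2n males pooled within numbers, the median SD was lower in groups 2 and 3 in every class of expression level. Among 3209 genes at 5 to 10 CPM the median SD was 0.183 in groups 2 and 3 and 0.315 in 2n. Among 4720 genes at 20 to 50 CPM it was 0.134 in groups 2 and 3 and 0.217 in 2n, and among 1184 genes above 100 CPM it was 0.134 in groups 2 and 3 against 0.215 in 2n. The BCV ratio of 3n to 2n moved from 0.478 in the lowest class to 0.577 at 50 to 100 CPM and 0.574 above. With a minimum of 20 CPM the spread per male differed by -0.0535 from 2n within numbers (exact permutation adjusted p = 0.00378). For group 3 number 11 against 2n number 108 it then differed by only -0.0171 (exact permutation adjusted p = 0.233).

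To test single genes, the absolute deviations of the males were compared gene by gene in a limma fit over the 15176 genes. This fit also takes males as independent although males of a set share its mean, so its p-values may be too small. In groups 2 and 3, 1372 genes had a lower spread than in 2n within numbers (9.04% of genes tested, limma adjusted p under 0.05) and 4 a higher one (0.0264%). At an unadjusted p under 0.05, 4416 genes were lower (29.1%) and 64 higher (0.422%). In the genes called lower the median SD was 0.117 in groups 2 and 3 and 0.439 in 2n. The share called lower was 11.5% of genes at 5 to 10 CPM and 4.98% of those above 100 CPM. With 2n limited to number 108, 1275 genes were lower and 3 higher. The number of calls rested on the form of the test: with squared deviations no gene passed in either direction (3399 lower and 55 higher at an unadjusted p under 0.05 by limma). With deviations from the set median none passed either (2028 and 14). The number lower was 814 without group 3 replicate 2, 816 without group 2 replicate 1, 830 without group 3 replicate 4, 841 without group 2 replicate 5, 848 without group 3 replicate 6 and 902 without group 3 replicate 3. In the fits that left out 1 male the median log2 SD ratio ran from -0.76 to -0.48.

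The genes with the largest loss of spread showed separate levels among diploid males of the same number. ENSCARG00000024270 (chromosome 28, 18501366 to 18502400 on the minus strand in goldfish annotation ASM336829v1, 1 exon) had 17.1 to 24 CPM in the 5 males of group 2 and 15 to 18.9 CPM in the 6 of group 3. In 2n number 108 it stood at 43.3 CPM in replicate 4 and 40.9 in replicate 9, but at 0.704 CPM in replicate 8 (17 counts) and 0.565 in replicate 10 (16 counts). In 2n number 14 it had 15.3 to 52.7 CPM, and the male of number 106 had 83.6. The males of groups 2 and 3 thus formed a narrow band inside the range of the 2n males. So did group 1, the other triploid males, with 21.1 to 27.1 CPM (SD 0.139). Most 2n males lay above every 3n male, and the 2 lowest 2n males were far below every 3n male. Mean CPM of the gene was 17.98 in groups 2 and 3 and 35.47 in 2n. Its SD was 0.153 in groups 2 and 3 and 2.28 in 2n within numbers (limma adjusted p = 0.019).

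ENSCARG00000051815 (unplaced scaffold QPKE01000239.1, 12654 to 18907, plus strand) divided the other diploid set. It had 24.1 to 29.4 CPM in group 2 and 27.9 to 31.9 in group 3. In 2n number 14 it stood at 4.65 CPM in replicate 1 and 4.78 in replicate 6, but at 35.2, 33.6 and 29.6 CPM in replicates 2, 5 and 7. In number 108 it had 25.5 to 33 CPM in all 4 males. Group 1 was narrow as well, with 24 to 32.1 CPM (SD 0.164). Only 2 diploid males lay below the band of the 3n males. The SD was 0.0883 in groups 2 and 3 and 1.16 in 2n (limma adjusted p = 0.0065). Each call held in 15 of 18 alternatives other than leaving out 1 male. Both calls were lost with squared deviations and with deviations from the set median, and that of ENSCARG00000024270 also with a replicate block (limma adjusted p = 0.239). That of ENSCARG00000051815 was lost in a further alternative too. The call of ENSCARG00000051815 held in 26 of 26 fits that left out 1 male. That of ENSCARG00000024270 held in 24 of 24, but without 2n replicate 8 or 10, its 2 low males, the gene was no longer matched on level and was not tested. Reads were assigned to genes of goldfish, and whether the low males carry a differing or missing sequence was not tested.

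**Figure D3:**
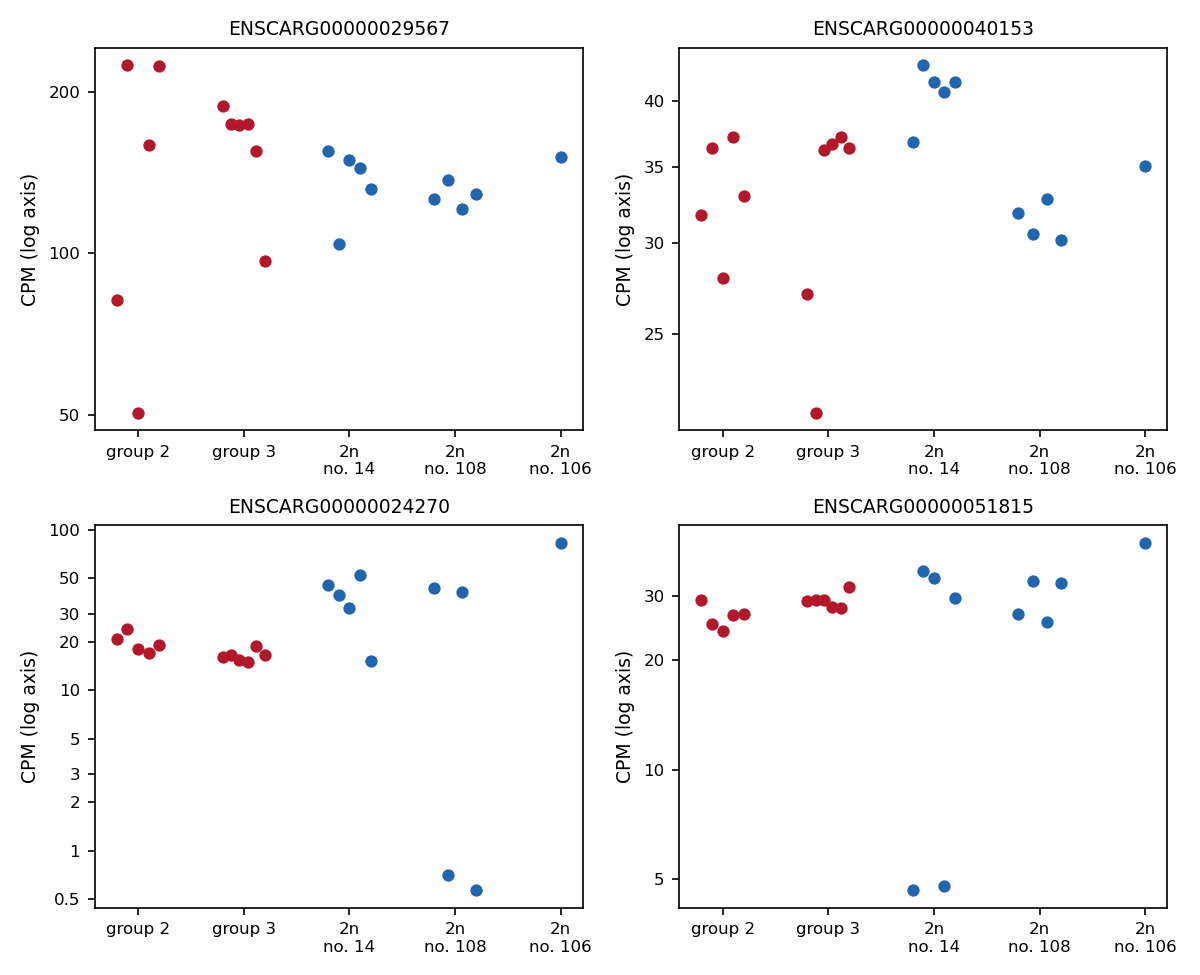
CPM on a log axis of the 4 genes chosen by the largest change in spread, each point being 1 male. The upper genes, on chromosomes 22 and 47, spread more in groups 2 and 3. The lower genes form a narrow band in groups 2 and 3 (15 to 24 CPM on the left, 24.1 to 31.9 CPM on the right), while 2 males of 2n number 108 on the left and 2 of number 14 on the right lie far below. On the left most other 2n males lie above the band.

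Widely varying genes were much rarer in group 2 and in group 3 number 11 than in the diploid sets of equal size. This did not hold for group 1, the other triploid males (given below). Over 5 males, 315 genes (2.08%) differed at least 2-fold between the lowest and the highest male of group 2, and 3283 (21.6%) in 2n number 14. A range of at least 4-fold was reached by 25 genes in group 2 and 292 in number 14, and at least 16-fold by 3 genes in group 2 and 21 in number 14. Over 4 males, 56 genes (0.369%) reached 2-fold in group 3 number 11 and 988 (6.51%) in 2n number 108. There 4-fold was reached by 3 genes in group 3 number 11 and 93 in number 108, and 16-fold by 0 genes in group 3 number 11 and 9 in number 108. The median SDs of these sets were 0.126 in group 3 number 11 and 0.168 in 2n number 108, a smaller gap than in the tail. The 99th percentile of the SD was 0.364 in group 3 number 11 and 0.81 in 2n number 108, and 0.509 in group 2 and 0.952 in 2n number 14. Genes with a 2-fold range overlapped between the sides: 158 were common to group 2 and number 14, or 50.2% of those of group 2 and 4.81% of those of number 14.

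**Figure D4:**
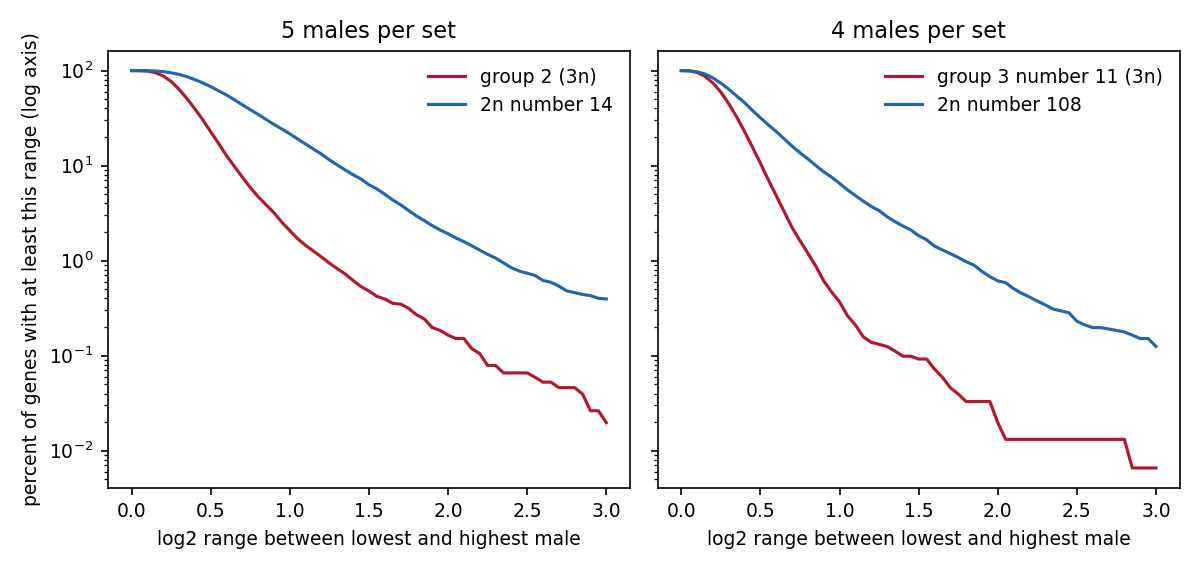
Percent of 15176 genes (log axis) whose log2 CPM range between the lowest and highest male of a set is at least the value on the x axis. Left, group 2 and 2n number 14 (5 males each); right, group 3 number 11 and 2n number 108 (4 males each). At a log2 range of 1 the curves stand at 2.08% and 21.6% on the left and at 0.369% and 6.51% on the right, 3n set first.

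Within each set the variance was divided into principal components, the main axes of difference between its males. The first principal component within a set held 47.8% of its variance in group 2, 54% in group 3 number 11, 47.9% in 2n number 14 and 47% in 2n number 108. With equal components it would hold 25% in sets of 5 and 33.3% in sets of 4. The first component never holds less than this, and 1 more variable male or a few widely varying genes can raise it. How many genes moved together was not tested. In 2n number 14 that component was mostly 1 male, replicate 2, with 66.9% of its squared weight, and in group 3 number 11 mostly replicate 5, with 65.6%. With the first component left out, the root mean square SD was 0.158 in group 2 against 0.303 in 2n number 14, and 0.13 in group 3 number 11 against 0.236 in 2n number 108.

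By chromosome the difference was similar throughout, with 4 exceptions. Of 53 sequences with at least 50 genes, 52 had a negative median log2 SD ratio of groups 2 and 3 over 2n. The lowest were LG28B (-0.996, 88 genes) and chromosome 4 (-0.93, 247 genes, of which 48 were called lower, against 9.04% of all genes). The highest was chromosome 29 (0.07, 211 genes), followed by chromosome 47 (-0.24, 175 genes), chromosome 22 (-0.26, 227 genes) and chromosome 38 (-0.37, 296 genes). The next was LG44F at -0.585, and all others lay lower. The SD was higher in groups 2 and 3 for 53.6% of genes on chromosome 29, 34.9% on 47 and 35.7% on 22. Over chromosomes 22, 29 and 47 together it was 41.6% of 613 genes, and elsewhere 13.3%. These 3 chromosomes had drawn attention in earlier results of the same data, so the choice is not independent of them.

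In 1 or 2 males the genes of these chromosomes moved together. The signed deviations given here carry the same correction for set size as the spread per male. They are thus somewhat larger than the plain log2 differences from the set mean, most so in the smallest sets. On chromosome 29 the median corrected deviation was -0.606 in group 2 replicate 3, while the other 4 males of group 2 stood at 0.127 to 0.217. Those of group 3 lay between -0.02 and 0.0145. On chromosome 47 it was -0.477 in group 3 replicate 2 and 0.0598 to 0.132 in the other 5 males of group 3. On chromosome 22 group 2 was divided, with 0.288 in replicate 2 and 0.227 in replicate 5, against -0.08, -0.26 and -0.138 in replicates 1, 3 and 4. On chromosome 38 group 3 replicate 6 stood at 0.181 and the other 5 at -0.0395 to -0.0156. On chromosomes 22, 29 and 38 the 2n males stayed between -0.0821 and 0.0782, and on 47 between -0.134 and 0.124. These chromosomes stand out by the spread of 3n males, and single males of both sides deviated on other sequences. Among 2n males, replicate 1 stood at 0.175 on LG28B and replicate 7 at -0.127 on chromosome 28. Among 3n males, group 3 replicate 1 stood at -0.16 on chromosome 1 and group 2 replicate 4 at -0.147 on chromosome 27.

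Without these males the ratios of chromosomes 29, 47 and 22 lay among those of the other chromosomes, and that of chromosome 38 still lay above them. The males left out were picked for their shift, and no 2n male was left out, which by itself lowers the ratio. The median log2 SD ratio of chromosome 29 was -0.72 without group 2 replicate 3, and that of chromosome 47 was -0.91 without group 3 replicate 2. On chromosome 22 it was -0.37 without group 2 replicate 2 alone and -0.37 without replicate 5 alone, both still above the other chromosomes, and -0.68 without both. On chromosome 38 it was -0.54 without group 3 replicate 6, a fit added with the results known. In group 2, 58 of the 315 genes with a 2-fold range lay on chromosome 29 and 15 on chromosome 22. These and chromosome 47 together held 23.5% of the 315 genes, against 4.04% of all genes compared and 4.51% of the 3283 genes with a 2-fold range in 2n number 14. Without the 3 chromosomes the spread per male still differed between 3n and 2n, by -0.0641 (exact permutation adjusted p = 0.000438).

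**Figure D5:**
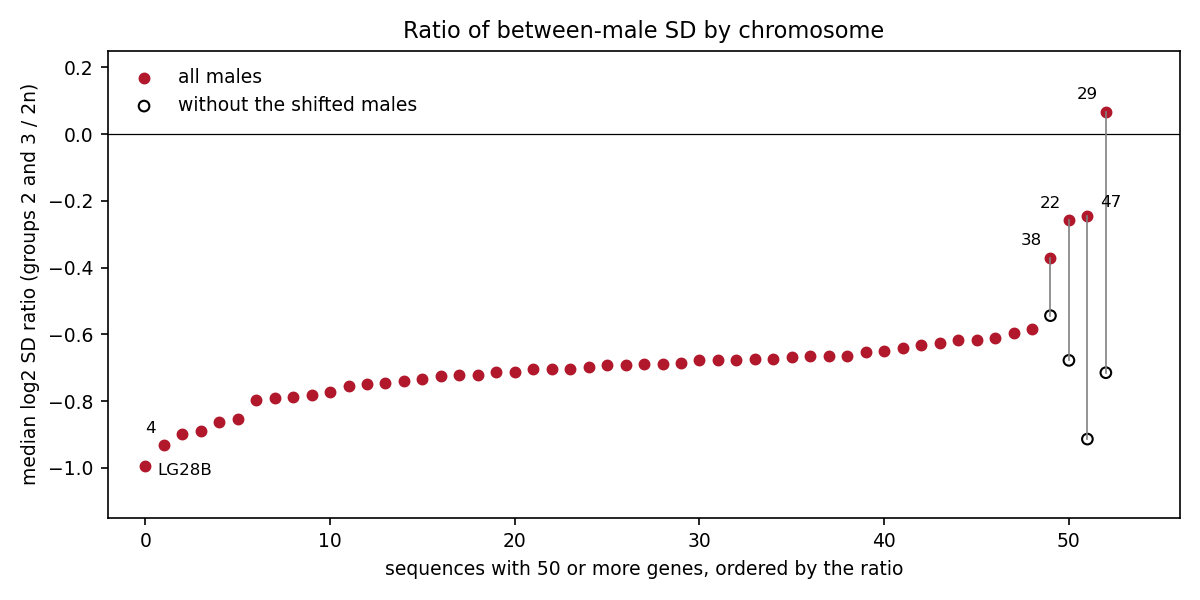
Median log2 ratio of the SD between males, groups 2 and 3 over 2n within numbers, for 53 sequences with at least 50 genes, in order of the ratio. Filled points use all males; open points leave out group 2 replicate 3 (chromosome 29), group 3 replicate 2 (47), group 2 replicates 2 and 5 together (22) or group 3 replicate 6 (38), and stand at -0.72, -0.91, -0.68 and -0.54 in that order.

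Few genes had a higher spread in groups 2 and 3. The 4 called lie on chromosomes 22, 47 and 2 and on LG28B, 1 each. Chromosomes 22, 29 and 47 held 4.04% of all genes compared. With these 3 chromosomes left out, 3 genes were called higher. So few calls say little about single chromosomes. ENSCARG00000029567 (chromosome 22, 18209332 to 18233806, minus strand) had 224 CPM in group 2 replicate 2 and 223 in replicate 5, but 81.9, 50.5 and 159 in replicates 1, 3 and 4. In group 3 it had 96.9 CPM in replicate 6 and 155 to 188 in the other 5, and in the 10 diploid males 104 to 155. The highest males of group 2 are those whose chromosome 22 stood high as a whole. Other males did not follow that order. Group 2 replicate 4 had more CPM than replicate 1, with chromosome 22 at -0.138 and -0.08. Group 3 replicate 6, lowest of group 3 for this gene, had the highest chromosome 22 deviation of group 3 (0.096). The SD of ENSCARG00000029567 was 0.684 in groups 2 and 3 and 0.179 in 2n (limma adjusted p = 0.0436). ENSCARG00000040153 (chromosome 47, 13634341 to 13645276, plus strand) had 21.3 CPM in group 3 replicate 2, 27.1 in replicate 1 and 36.2 to 37.2 in the other 4, and 28 to 37.2 in group 2. In 2n it had 36.8 to 43 CPM in number 14 and 30.2 to 32.8 in number 108, each a tight band. The SD was 0.27 in groups 2 and 3 and 0.0736 in 2n within numbers (limma adjusted p = 0.0398), but 0.197 over all 2n males, where the call was lost (limma adjusted p = 0.594). In group 1 the SD was 0.443 for ENSCARG00000029567 and 0.177 for ENSCARG00000040153. Both calls lay near the threshold. Among fits leaving out 1 male, that of ENSCARG00000029567 passed in 12 of 26, with adjusted p up to 0.112, and that of ENSCARG00000040153 in 20 of 26, with adjusted p up to 0.138, both by limma. With group 3 split by its number, the log2 SD ratio of ENSCARG00000040153 was 0.98 and did not pass (limma adjusted p = 0.252).

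The lower spread was seen across kinds of genes. Genes on unplaced scaffolds had a median SD of 0.152 in groups 2 and 3 and 0.269 in 2n, and 299 of 2280 (13.1%) were called lower. On numbered chromosomes the SDs were 0.147 in groups 2 and 3 and 0.236 in 2n, with 1041 of 12602 (8.26%) called lower. Genes with 1 exon gave 0.167 in groups 2 and 3 and 0.264 in 2n, with 15 of 240 (6.25%) called lower, below the share over all genes. All 12 mitochondrial features compared had a lower SD in groups 2 and 3 (medians 0.223 in groups 2 and 3 and 0.373 in 2n), with log2 ratios of -2.33 to -0.39. Of these, 1 (8.33%) was called lower by limma, against 9.04% of all genes. The 12 features moved together in single males and are not independent. Their median deviation, corrected for set size, was 0.646 in 2n replicate 10 and -0.381 in group 2 replicate 2, the largest on each side.

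With all 10 diploid males as 1 set, the gap was wider. Their spread per male averaged 0.206 ± 0.0369 (SD, n = 10), from 0.168 to 0.279, so every 2n male lay above every male of groups 2 and 3. The difference from the 0.106 of groups 2 and 3 was -0.101 (exact permutation p = 2.84e-06, the smallest that 11 against 10 allows, adjusted p = 1.98e-05). That comparison sets 3n spread within groups against 2n spread across numbers. Its p-value again takes males of a set as independent. The median SD over all 2n males was 0.284, whereas the 11 males of groups 2 and 3 taken as 1 set had 0.156. By limma, 4717 genes were lower in groups 2 and 3 (31.1%) and 7 higher (0.0461%). At an unadjusted p under 0.05, 7082 were lower (46.7%) and 15 higher (0.0988%). Of the 1372 genes lower within numbers, 1332 were lower here too. Both fits share the 3n deviations and nearly all 2n males, so this overlap is not independent agreement. With deviations from the set median 1593 were lower, and with squared deviations none was (6031 at an unadjusted p under 0.05 by limma). The means of 2n numbers 14 and 108 (5 and 4 males) differed by at least 2-fold in 454 genes (2.99% of 15176). Those of group 2 and group 3 (5 and 6 males) did so in 1 gene (0.00659%). Those of numbers 12 and 11 of group 3 (2 and 4 males) did so in 4 genes (0.0264%).

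Group 2, reared warm, and group 3, reared at 22 °C, had overlapping spreads. Their means were 0.109 ± 0.0125 (SD, n = 5) in group 2 and 0.102 ± 0.0261 (SD, n = 6) in group 3, a difference of 0.0072 (exact permutation adjusted p = 0.582). Its sign changed with the processing: it was -0.00298 without matching genes on level and -0.000445 with deviations from the set median. A miss at this sample size does not show equal spread. The median SD per gene was 0.144 in group 2 and 0.137 in group 3.

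The remaining 5 triploid males, group 1, did not as a whole share the low spread. They carried the label 28 to 31 °C and came from gynogenesis by mothers whose offspring reversed sex when warm but not at 22 °C, with numbers 4, 5 and 6 in their library names. The names also give 28 for replicates 4 and 5 and 31 for replicates 1, 2 and 3. Group 1 was taken as 1 set across these numbers and temperatures. The spread of its males was 0.257, 0.155, 0.126, 0.154 and 0.154 in replicates 1 to 5. The difference of groups 2 and 3 from group 1 was -0.0638 (exact permutation adjusted p = 0.00107). Replicate 1 carried this: without it the difference was -0.0206 (exact permutation adjusted p = 0.244), and without replicates 1 and 2, also an alternative added with the results known, it turned to 0.0187 (adjusted p = 0.192, exact permutation). Group 1 replicates 3, 4 and 5, of numbers 5, 5 and 4, differed from each other by only 0.117, 0.133 and 0.121 in median absolute log2 CPM, inside the range of groups 2 and 3. Their differences from replicates 1 and 2 were 0.222 to 0.353. Of the variance within group 1, 79.5% lay on the first component. Widely varying genes were not rare in group 1. Over its 5 males, 1919 genes (12.6%) had a range of at least 2-fold, 288 of at least 4-fold and 26 of at least 16-fold. The 99th percentile of the SD was 1.14. Of the 15176 genes, 69% had a mean in group 1 within 0.5 log2 of groups 2 and 3, and over these the difference was -0.0423 (exact permutation adjusted p = 0.00481).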

How the data were processed

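Per the labels, testis RNA with an integrity number above 7 was poly(A)-selected and made into stranded libraries. The authors' deposited table holds whole-number counts per gene, made per the file headers with featureCounts 2.0.6 (exons, reverse strand 2, proper pairs of up to 25000 bp, mapping quality 0) on goldfish annotation ASM336829v1. The submitters' processing notes name cutadapt 4.3, STAR 2.7.3a and Picard 2.25.6. Exon lengths deposited by the authors served only to describe genes. None of the 62131 IDs matched the gene table at hand (0 of 98729 genes), so the cell type marker lists had 0 members.

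The count tests of edgeR compare means, so spread was tested on deviations. Counts of all 26 males were scaled by TMM (edgeR 4.0.16, limma 3.58.1, R 4.3.3) to log2 CPM with prior count 2. Each deviation from the set mean, absolute or signed, was multiplied by the square root of n/(n-1) for a set of n males. A limma fit (trend, robust) compared deviations per gene, with Benjamini-Hochberg adjustment. The script was tested on simulated data, where unadjusted p-values were slightly liberal. There each gene varied on its own, without shifts shared by genes of a male, so the error rate on these data may differ. Values per male were compared by exact permutation, adjusted over 7 tests. All 7 and the limma fits take males as independent, although males of a set share its mean. SDs were pooled over sets by degrees of freedom. Named genes are the 2 highest and 2 lowest SD ratios among called genes of at least 10 CPM on both sides. Alternatives were other scalings, filters, level matches, prior counts, centres, depth, sets and DESeq2 1.42.0. No 2 libraries held identical values (lowest chi-square per gene 5.01). Members, sets and lists were chosen with earlier results of these data known. Precision is limited by 4 to 6 males per set.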

Additional observations from a re-analysis of the deposited data

Results flagged for a closer look

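In 38 sets of 4 to 10 males, 5 values stood apart from the rest of their set by Dixon's test, which flags about 1 set in 20 by chance. The chromosomes and genes tested were chosen for their spread or for shifts already known. That rate does not apply to them, and their flags only describe the shifts given above. The spread of group 1 replicate 1 was 0.257, above the other 4 of group 1. The median deviation of chromosome 29, corrected for set size, was -0.606 in group 2 replicate 3, below the other 4 of group 2. That of chromosome 47 in group 3 replicate 2 was -0.477, and that of chromosome 38 in group 3 replicate 6 was 0.181, each apart from the other 5 of group 3. ENSCARG00000029567, on chromosome 22, was at 96.9 CPM in group 3 replicate 6, below the other 5 of group 3.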

How the results depend on the processing

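The spread per male of groups 2 and 3 stayed below that of 2n, within numbers and over all, in every fit run, while counts of genes called by limma moved most. Of 211 values under alternatives other than leaving out 1 male, 164 stayed within the limits set for them, 36 counts or ratios changed in size beyond these, 7 lost and 1 gained a call and 3 changed sign. Within numbers, genes lower and higher in groups 2 and 3 numbered 2211 and 13 at a CPM minimum of 1, 355 and 0 at 20 (36 higher at an unadjusted p under 0.05), 2907 and 395 without a minimum and 2244 and 9 without matching on level. Over all they numbered 14 higher at a minimum of 1, 2204 and 3 at 20, 8454 and 515 without a minimum, and 12 higher without matching. Matching within 0.25 gave 878 lower within numbers and 2824 over all. An adjusted p under 0.01 left 114 and 0 within numbers and 1496 and 0 over all. Squared deviations gave 0 in both directions and both comparisons (over all, 6031 and 14 at an unadjusted p under 0.05), and deviations from the median 0 and 0 within numbers and 1593 and 0 over all (7 higher unadjusted). DESeq2 size factors gave 7 higher within numbers and 4 over all, dropping chromosomes 22, 29 and 47 gave 4 over all, and log2 deviations, an alternative added later, gave 4 over all. With 2n limited to number 14, 3863 genes were lower; limited to number 108, the per-male difference was -0.0258 and the median log2 SD ratio -0.172. Spread per male of 2n number 14 against 108 missed the threshold with upper quartile scaling (0.0644), no CPM minimum (0.0596), prior count 0.5 (0.0673), those chromosomes left out (0.067) and the median (0.0477). Group 2 against group 3 turned to -0.00298 without matching and -0.000445 with the median. Group 3 number 11 against 2n number 108 passed with matching within 0.25 (-0.035). Against group 1, the median gave -0.0487, which missed, and leaving out its replicates 1 and 2 gave 0.0187. The cause of these moves was not tested. Leaving out 1 male at a time gave 814 to 1798 genes lower and 2 to 11 higher within numbers, and 3646 to 5065 lower and 3 to 8 higher over all. Per-male differences then ran from -0.0694 to -0.0425 within numbers, -0.105 to -0.0919 over all, -0.103 to -0.0612 for group 2 against number 14, -0.0477 to -0.0197 for group 3 number 11 against number 108, 0.000436 to 0.0169 for group 2 against group 3, 0.0378 to 0.0811 for number 14 against 108 and -0.0804 to -0.0206 against group 1. Of 16 pairs of males with the same replicate number in different groups, 7 correlated over 0.1 (range -0.225 to 0.326). Whether males of different replicate numbers correlate less was not tested. A replicate block gave 1894 lower and 1 higher within numbers, and 4314 lower and 3 higher over all. With every library thinned to 15375923 counts, the lowest total, 1085 genes were lower and 3 higher within numbers, and 4158 and 5 over all. Genes near the CPM minimum and sets of 4 to 6 males limit the precision of single SDs.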
